A study of Mus musculus with 14 samples.

Results

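The integrated stress response genes of the ATF4-CHOP pathway were followed in mouse kidney as 10 named genes, Atf4, Atf5, Atf3, Ddit3, Ppp1r15a, Trib3, Chac1, Asns, Sesn2 and Ddit4, out of 23286 genes listed in both deposited tables. They were taken by gene symbol, and the rule uses no measured value, but the genes were chosen with earlier results of these data known. All 10 were found in both tables and passed the filter on low values in every comparison. The study asked how angiopoietin-Tie2 signalling bears on kidney ischemia-reperfusion (IR) injury. Bulk RNA-seq of whole kidney was available for 4 groups of 3 libraries each, from 9-week-old mice at 5 h after surgery. The groups were VE-PTPiKO IR, VE-PTPiKO sham, Control IR and Control sham. VE-PTPiKO is the label of a genotype that targets VE-PTP, the endothelial phosphatase encoded by Ptprb that removes phosphate from the Tie2 receptor. The labels used here do not give the promoter or Cre line behind the knockout, the genotype of the Control mice, or whether each library came from a separate animal. P-values therefore measure only the spread between these libraries, which may in part be technical.

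In the integrated stress response, kinases that sense endoplasmic reticulum (ER) stress, amino acid shortage, viral RNA or heme shortage phosphorylate the translation factor eIF2. General protein synthesis then falls, while the mRNA of ATF4, which carries upstream open reading frames, is translated more. ATF4 pairs with C/EBP and related leucine zipper proteins and switches on genes for amino acid supply, redox balance and, under lasting stress, cell death through CHOP, the product of Ddit3. In the kidney the pathway is best known from injured tubule cells. Most of this control acts on translation and on protein, which RNA-seq does not measure.

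The binding letters of these factors gave the 10 genes a first point of comparison. ATF4-C/EBP pairs are known to bind the composite element TGATGNAA, and ATF/CREB dimers the palindrome TGACGTCA. Both were searched on both strands in RefSeq windows of 300 bases (250 before and 50 from the transcription start, build GRCm38.p6), of which the 10 genes had 11 because Atf5 has a pair of starts. The composite element was present in 3.97% of all 32851 windows and the palindrome in 1.79%. The 8 letters of the composite element were found for Atf3, Chac1, Trib3 and Asns, and the palindrome for Ppp1r15a. Neither was found in the windows of Atf4, Atf5, Ddit3, Sesn2 and Ddit4, which says only that these letters are absent from those 300 bases. The windows below belong to the genes with the highest and the lowest fold changes after IR in Control kidneys, Atf3 and Chac1 against Sesn2 and Ddit4, and end before the first annotated exon. The 30-base sites belong to the 3 other genes with a match. All run 5′ to 3′ on the strand of the gene, and capitals mark the match.
Atf3 upstream window, 243 bases, chr1:191183341-191183583, minus strand: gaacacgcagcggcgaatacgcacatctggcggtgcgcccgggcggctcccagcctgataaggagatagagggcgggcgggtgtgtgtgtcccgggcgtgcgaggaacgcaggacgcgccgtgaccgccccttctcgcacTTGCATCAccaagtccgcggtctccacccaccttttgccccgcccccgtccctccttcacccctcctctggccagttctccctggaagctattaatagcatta
Chac1 upstream window, 237 bases, chr2:119350992-119351228, plus strand: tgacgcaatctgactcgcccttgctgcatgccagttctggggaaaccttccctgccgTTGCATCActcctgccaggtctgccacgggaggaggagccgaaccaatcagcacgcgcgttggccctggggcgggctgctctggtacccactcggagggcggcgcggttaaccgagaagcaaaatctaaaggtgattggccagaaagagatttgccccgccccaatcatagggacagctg
Sesn2 upstream window, 205 bases, chr4:132510502-132510706, minus strand: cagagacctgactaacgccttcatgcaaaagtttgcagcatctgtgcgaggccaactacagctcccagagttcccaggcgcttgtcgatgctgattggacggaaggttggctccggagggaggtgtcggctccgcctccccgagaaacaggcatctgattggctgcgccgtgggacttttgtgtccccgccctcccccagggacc
Ddit4 upstream window, 186 bases, chr10:59951835-59952020, minus strand: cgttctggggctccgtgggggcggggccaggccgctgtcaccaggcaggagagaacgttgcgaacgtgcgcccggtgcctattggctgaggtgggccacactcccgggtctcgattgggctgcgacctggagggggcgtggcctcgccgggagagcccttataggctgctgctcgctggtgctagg
Asns site, chr6:7693214-7693243, minus strand: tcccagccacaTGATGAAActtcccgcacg
Trib3 site, chr2:152344028-152344057, minus strand: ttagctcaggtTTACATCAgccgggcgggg
Ppp1r15a site, chr7:45526262-45526291, minus strand: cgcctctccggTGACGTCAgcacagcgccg
The Atf3 match began 110 bases and the Chac1 match 193 bases upstream of the RefSeq start, the Asns and Ppp1r15a matches 23 and 12 bases upstream, and the Trib3 match 14 bases after the start. In the GENCODE annotation, a source other than RefSeq, the Asns match lies in an exon and the others do not, although the Trib3 match follows the RefSeq start. A match is a description of the letters and does not show binding.

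Library values are given as deposited, that is, read counts per gene scaled by a size factor of each library, here called normalized counts. Size factors were set separately for each genotype, so levels were compared between genotypes only after joint normalization. The libraries held 15427887 to 21296392 reads in genes. Ptprb had 75.0, 94.8 and 126 CPM (counts scaled to the library total) in VE-PTPiKO IR libraries and 117, 162 and 162 CPM in VE-PTPiKO sham libraries, against 112, 122 and 159 CPM in Control IR and 168, 246 and 177 CPM in Control sham libraries. It was 1.37-fold lower in VE-PTPiKO than in Control after IR and 1.34-fold lower in sham, and neither difference passed the adjusted threshold (limma adjusted p = 0.99986 and 1). Which exons are deleted is not given in the labels, and reads outside them would remain. Proximal tubule markers summed to 15770 to 23870 CPM in the 12 libraries and none of the 7 was at 0. The long non-coding RNA Malat1, which stays in the nucleus, took 1.96% of reads in VE-PTPiKO IR replicate 3, 1.15% in VE-PTPiKO sham replicate 2 and 1.02% in Control sham replicate 2, against 0.327% to 0.564% in the other 9.

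In VE-PTPiKO kidneys, 4 of the 10 genes rose 5 h after IR, Atf3, Ddit3, Ppp1r15a and Atf4, and Sesn2 fell. In Control kidneys 7 of the 10 rose and 2 fell. Atf3, Chac1, Ppp1r15a, Trib3, Ddit3, Atf4 and Asns were higher after IR than in sham Control kidneys, by 14.5-fold at Atf3 and 1.97-fold at Asns, while Sesn2 and Ddit4 were lower. Atf5 missed the threshold narrowly in Control. A gene was called at a Benjamini-Hochberg adjusted p under 0.05 in limma, over all genes tested. The 5 of 10 called in VE-PTPiKO compare with 2.71% of all 16401 genes tested (1.92% higher, 0.793% lower), and the 9 of 10 called in Control with 11.5% of 16257 (7.48% higher, 4.02% lower). Leaving out single VE-PTPiKO libraries left between 3 and 7 of the 10 called. The median log2 fold change of the 10 genes was 0.92 in VE-PTPiKO and 1.17 in Control, where the median over all genes was -0.01 in both. In whole kidney, a change in the share of a cell type and a change of RNA per cell cannot be told apart.

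**Figure D1:**
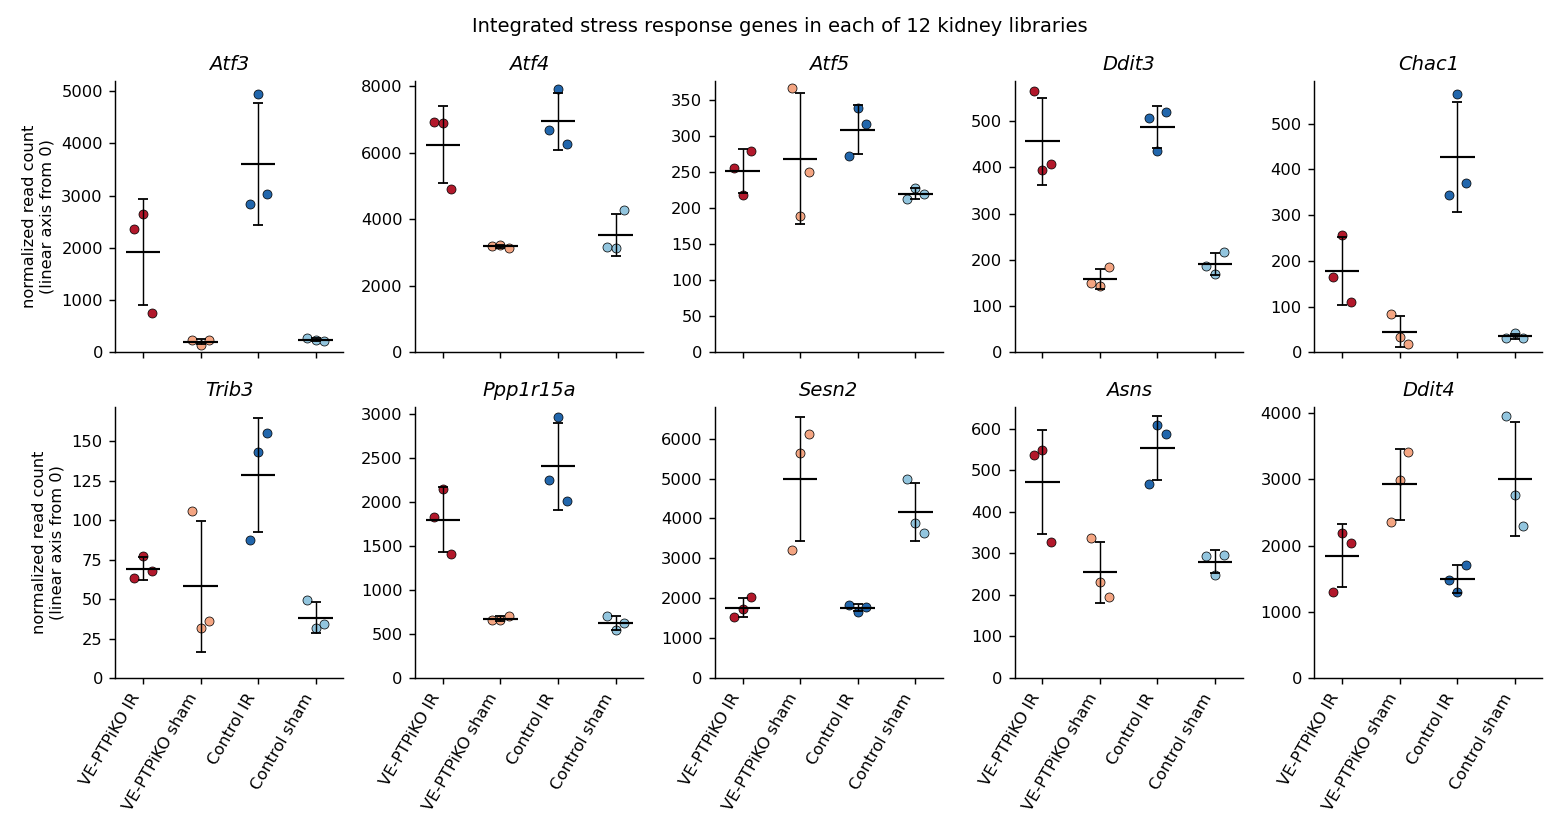
Normalized counts of the 10 genes in each library, after joint normalization of all 12 libraries, on linear axes from 0 with 1 panel per gene. Points are libraries, horizontal bars group means and vertical bars the SD, in the order VE-PTPiKO IR, VE-PTPiKO sham, Control IR, Control sham. In Control the IR and sham points do not overlap in any panel, while in VE-PTPiKO they overlap for Atf5, Trib3 and Asns.

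Atf4 (ENSMUSG00000042406, chr15:80255184-80257545 on the plus strand, mm10) encodes the central transcription factor of the pathway. It had 6917, 6858 and 4875 normalized counts in VE-PTPiKO IR libraries, against 3182, 3211 and 3129 in VE-PTPiKO sham libraries. In Control it had 6741, 7972 and 6302 after IR, against 3189, 3160.2 and 4305 in sham. Every IR library lay above every sham library of its genotype. The mRNA rose 1.93-fold in VE-PTPiKO (log2 0.95 ± 0.16 SE, adjusted p = 0.0159) and 1.98-fold in Control (log2 0.99 ± 0.14, adjusted p = 0.00123). The VE-PTPiKO call was lost without IR replicate 1, IR replicate 2, sham replicate 2 or sham replicate 3, with adjusted p of 0.0778, 0.0896, 0.077 and 0.101.

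Atf5 (ENSMUSG00000038539, chr7:44812256-44815658 on the minus strand) encodes a related leucine zipper factor whose mRNA, like that of Atf4, is under upstream open reading frame control. It had 256, 218 and 278 normalized counts in VE-PTPiKO IR libraries and 366, 187 and 249 in VE-PTPiKO sham libraries, and the groups overlapped. The Control values were 275, 341 and 319 after IR and 213, 229 and 222 in sham, with no overlap. Neither difference was called, at log2 -0.05 ± 0.25 (adjusted p = 0.956) in VE-PTPiKO and 0.49 ± 0.14 (adjusted p = 0.0504) in Control. The Control difference lay near the threshold and was called under 7 of 17 alternatives. Of the Atf5 exons, 4.11% overlap Il4i1 or Nup62 on the other strand, and no source used here says whether counting took strand into account.

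Atf3 (ENSMUSG00000026628, chr1:191170297-191183333 on the minus strand), a stress-induced repressor and activator of the same family and a target of ATF4, had the largest rise of the 10 genes in both genotypes. It had 2357, 2627 and 747 normalized counts in VE-PTPiKO IR libraries, against 228, 146 and 239.8 in VE-PTPiKO sham libraries. Control IR libraries had 2858, 4992 and 3058, against 281, 227 and 223 in sham. VE-PTPiKO IR replicate 3 stood below the other 5 IR libraries and still above all sham libraries. The rise was 8.30-fold in VE-PTPiKO (log2 3.05 ± 0.43, adjusted p = 0.00781) and 14.5-fold in Control (log2 3.85 ± 0.19, adjusted p = 3.18e-06). Without VE-PTPiKO IR replicate 3, the library highest in Malat1, the VE-PTPiKO rise was 12.4-fold, and without VE-PTPiKO IR replicate 2 it was 6.61-fold. In the authors' deposited table the VE-PTPiKO log2 fold change was 1.66 ± 0.30 (SE), against 3.22 with DESeq2 on the recovered reads. The VE-PTPiKO group means were 1910 and 205 normalized counts, so the deposited value is not the plain ratio of these means.

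Ddit3 (ENSMUSG00000025408, chr10:127290793-127296288 on the plus strand) encodes CHOP, a C/EBP-family factor that ATF4 induces and that favours cell death when stress persists. It had 564, 393 and 405 normalized counts in VE-PTPiKO IR libraries, against 148, 142 and 183 in VE-PTPiKO sham libraries. Control values were 511, 439 and 522 after IR, against 187, 170.4 and 218 in sham. IR and sham libraries did not overlap in either genotype. It rose 2.84-fold in VE-PTPiKO (log2 1.51 ± 0.20, adjusted p = 0.00568) and 2.56-fold in Control (log2 1.35 ± 0.15, adjusted p = 0.000188), and was called in both under all 17 alternatives. In the annotation 10.9% of its exon bases are shared with a second Ddit3 model, Gm4189 or Mars, so a part of its count is uncertain.

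Ppp1r15a (ENSMUSG00000040435, chr7:45522917-45526268 on the minus strand) encodes GADD34, which brings protein phosphatase 1 to eIF2 and so ends the response. It had 1830.2, 2142 and 1400.0 normalized counts in VE-PTPiKO IR libraries, against 652, 654 and 699 in VE-PTPiKO sham libraries. In Control kidneys the counts were 2268, 2986 and 2021 after IR, against 711, 552 and 632 in sham. The sham libraries of both genotypes covered a narrow range below all IR libraries. It rose 2.64-fold in VE-PTPiKO (log2 1.40 ± 0.17, adjusted p = 0.00372) and 3.80-fold in Control (log2 1.93 ± 0.15, adjusted p = 3.5e-05).

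Trib3 (ENSMUSG00000032715, chr2:152337425-152344060 on the minus strand) encodes a pseudokinase that binds ATF4 and AKT and restrains them, a second feedback arm. It had 63.3, 76.9 and 67.1 normalized counts in VE-PTPiKO IR libraries and 106, 31.7 and 36.0 in VE-PTPiKO sham libraries. Control libraries held 88.4, 144 and 156 after IR and 49.6, 31.6 and 34.4 in sham. VE-PTPiKO sham replicate 1 lay above all 3 VE-PTPiKO IR libraries, whereas the Control groups did not overlap. The VE-PTPiKO difference was log2 0.47 ± 0.42 (adjusted p = 0.674), and the Control rise was 3.27-fold (log2 1.71 ± 0.28, adjusted p = 0.00241). Without VE-PTPiKO sham replicate 1 the VE-PTPiKO estimate was 2.01-fold higher, with an adjusted p of 0.126.

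Chac1 (ENSMUSG00000027313, chr2:119351242-119354327 on the plus strand) encodes a glutathione-degrading enzyme, a target of the ATF4-ATF3-CHOP cascade. It had 164, 256 and 109 normalized counts in VE-PTPiKO IR libraries and 82.5, 33.6 and 18.5 in VE-PTPiKO sham libraries. Control counts were 347, 570.0 and 373 after IR and 31.6, 42.2 and 31.1 in sham. IR and sham did not overlap in either genotype, and VE-PTPiKO sham replicate 1 was the highest sham library. The VE-PTPiKO estimate was 4.36-fold (log2 2.12 ± 0.51) and did not pass the threshold (adjusted p = 0.0692), though it passed under 6 of 17 alternatives, among them a fit with the replicate number as a block (limma adjusted p = 0.0162). That block has no clear basis in this comparison. Over all genes, deviations of same-numbered VE-PTPiKO IR and sham libraries from their group means had r of 0.463, -0.287 and 0.121. The estimate was 6.43-fold without VE-PTPiKO sham replicate 1 and 3.11-fold without VE-PTPiKO sham replicate 3, and 7.31-fold when limma weighted each library by its fit (adjusted p = 0.00115). In the authors' deposited table its log2 fold change in VE-PTPiKO was 0.85 ± 0.30 (SE), with an adjusted p of 0.0456. DESeq2 on the recovered reads gave 1.97, so here too the deposited value is not a plain ratio of means. The Control rise was 11.8-fold (log2 3.56 ± 0.23, adjusted p = 7.80e-06).

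Asns (ENSMUSG00000029752, chr6:7675171-7693182 on the minus strand) encodes asparagine synthetase, a classic amino acid response gene. It had 535, 547 and 325 normalized counts in VE-PTPiKO IR libraries and 336, 229 and 195 in VE-PTPiKO sham libraries. Among Control libraries it had 471, 614 and 589.9 after IR and 296, 249 and 299.5 in sham. VE-PTPiKO IR replicate 3 fell just under VE-PTPiKO sham replicate 1, so those groups overlapped. It had a log2 estimate of 0.89 ± 0.26 in VE-PTPiKO (adjusted p = 0.137) and rose 1.97-fold in Control (log2 0.98 ± 0.15, adjusted p = 0.00145). The VE-PTPiKO difference was called under 6 of 17 alternatives, among them DESeq2 (adjusted p = 0.0299), the replicate block (limma adjusted p = 0.0325) and the fit without IR replicate 3 (limma adjusted p = 0.0136).

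Sesn2 (ENSMUSG00000028893, chr4:132492807-132510456 on the minus strand) encodes sestrin 2, a leucine sensor that restrains the growth kinase complex mTORC1 and, in other settings, a gene that ATF4 induces. It had 1533, 1730.5 and 2003 normalized counts in VE-PTPiKO IR libraries, against 3201, 5599 and 6079.6 in VE-PTPiKO sham libraries. The counts in Control were 1849.8, 1679 and 1787 after IR, against 5014, 3894 and 3665 in sham. Every IR library lay below every sham library. It fell in both genotypes, 2.74-fold lower in VE-PTPiKO (log2 -1.45 ± 0.24, adjusted p = 0.0144) and 2.34-fold lower in Control (log2 -1.23 ± 0.13, adjusted p = 0.000146). The VE-PTPiKO call was lost without IR replicate 1, IR replicate 2, sham replicate 2 or sham replicate 3, with adjusted p of 0.0638, 0.07, 0.0731 and 0.0847.

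Ddit4 (ENSMUSG00000020108, chr10:59949675-59951770 on the minus strand) encodes REDD1, another inhibitor of mTORC1 known to respond to hypoxia, glucocorticoids and ATF4. It had 1297, 2181 and 2029 normalized counts in VE-PTPiKO IR libraries and 2355, 2962 and 3401 in VE-PTPiKO sham libraries. Its Control counts were 1488, 1312 and 1720.3 after IR and 3979, 2774 and 2310.45 in sham. IR libraries lay below sham libraries in both genotypes. It had a log2 estimate of -0.68 ± 0.22 in VE-PTPiKO (adjusted p = 0.169) and fell in Control, 1.96-fold lower (log2 -0.97 ± 0.18, adjusted p = 0.00558). The VE-PTPiKO difference was called under 2 of 17 alternatives, the replicate block (limma adjusted p = 0.0358) and library weights (limma adjusted p = 0.0237).

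**Figure D2:**
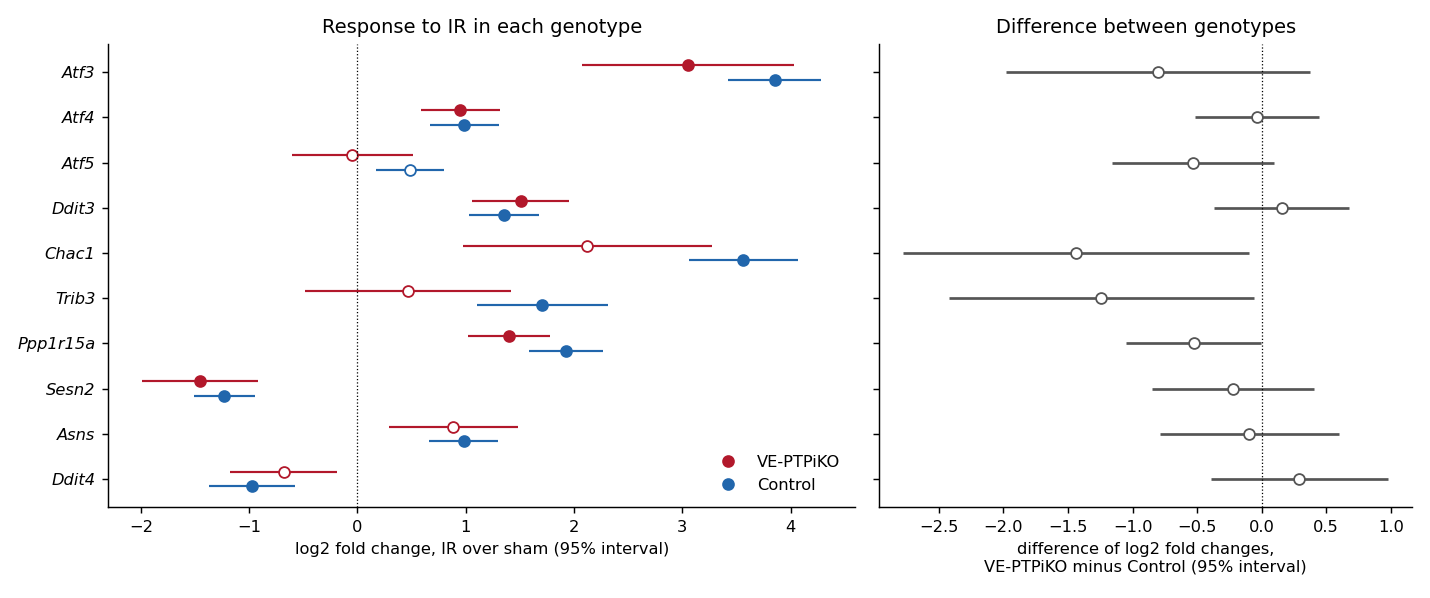
Left, log2 fold change of IR over sham for the 10 genes with 95% confidence intervals from limma, in VE-PTPiKO (red) and in Control (blue), and right, the VE-PTPiKO minus Control difference of these with its interval; filled points are called and open points are not. Atf3 stands highest in both genotypes, at 3.05 in VE-PTPiKO and 3.85 in Control, and Sesn2 lowest, at -1.45 and -1.23.

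Counted over the genes, IR and sham libraries were fully separated for 7 of 10 in VE-PTPiKO and for 10 of 10 in Control, where 20.6% and 29.4% of all genes tested were separated. In the authors' deposited table, 8 of the 10 genes had an adjusted p under 0.05 in VE-PTPiKO and all 10 in Control. Asns (adjusted p = 0.0076) and Ddit4 (adjusted p = 0.020) joined Chac1 among the VE-PTPiKO genes that passed in that table and not in limma. The share of all genes passing in the authors' tables was not counted, so these counts have no background beside them. DESeq2 on the recovered reads called 7 of the 10 and 1008 genes in all in VE-PTPiKO. In Control it called 10 of the 10 and 2218 genes in all. Summed levels of monocyte and of red cell markers were higher in every IR library than in any sham library of the same genotype. The 8 monocyte and macrophage markers summed to 119 to 141 CPM in VE-PTPiKO IR against 104 to 115 CPM in VE-PTPiKO sham, and to 129 to 142 CPM in Control IR against 106 to 111 CPM in Control sham. Of these 8 markers 1 rose in VE-PTPiKO and 2 in Control, where 1.92% and 7.48% of all genes tested were called higher, and the means did not all go the same way. Cd68 averaged 177 normalized counts after IR against 34.2 in sham in VE-PTPiKO, and 191 against 33.6 in Control. Csf1r averaged 1133 against 1221 in VE-PTPiKO and 1307 against 1266 in Control. C1qb averaged 200 against 206 in VE-PTPiKO and 184 against 201 in Control. The 7 neutrophil markers summed to 11.02 to 21.2 CPM in VE-PTPiKO IR against 8.41 to 11.5 CPM in sham, and to 10.5 to 35.3 CPM in Control IR against 6.395 to 13.5 CPM in sham, with none called. Hemoglobin and other red cell markers summed to 45.4 to 127 CPM in VE-PTPiKO IR against 29.5 to 42.5 CPM in sham, and to 82.7 to 154 CPM in Control IR against 28.8 to 45.2 CPM in sham. Of the 4 red cell markers tested, none was called in VE-PTPiKO and 2 rose in Control, and Hba-a2 was the only one at 0 in all libraries of the sham groups. The part of these cells in the results was not tested.

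Per length of exon, the order of the 10 genes changed with injury. Levels in RPKM (reads per exon length and library total) placed Atf4 first in VE-PTPiKO IR kidneys, at 152 ± 24.6 RPKM (SD, n = 3), and in Control IR kidneys, at 166 ± 19.8 RPKM. In sham kidneys Ddit4 had the highest mean, 92.3 ± 14.1 RPKM in VE-PTPiKO and 94.4 ± 27.1 RPKM in Control, but its range overlapped that of the next gene. Atf3 averaged 50.9 ± 26.3 RPKM in VE-PTPiKO IR kidneys, where its range of 20.8 to 69.3 RPKM overlapped the 42.3 to 70.6 RPKM of Ddit4 and the lowest value was that of replicate 3. In Control IR kidneys Atf3 averaged 94.6 ± 30.8 RPKM, and its range of 72.0 to 129.6 RPKM lay above the 41.8 to 56.7 RPKM of Ddit4. In sham kidneys it averaged 5.29 RPKM in VE-PTPiKO and 6.21 RPKM in Control. Trib3 had the lowest mean in all 4 groups, at 1.88 RPKM in VE-PTPiKO IR, 1.53 in VE-PTPiKO sham, 3.44 in Control IR and 0.994 in Control sham. In both sham groups its range overlapped that of Chac1, which averaged 1.55 RPKM in VE-PTPiKO sham and 1.17 RPKM in Control sham. Chac1 lay next above Trib3 in VE-PTPiKO IR at 6.20 RPKM, with no overlap, and stood above Asns and Atf5 in Control IR at 14.7 RPKM, where its range overlapped that of Asns.

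**Figure D3:**
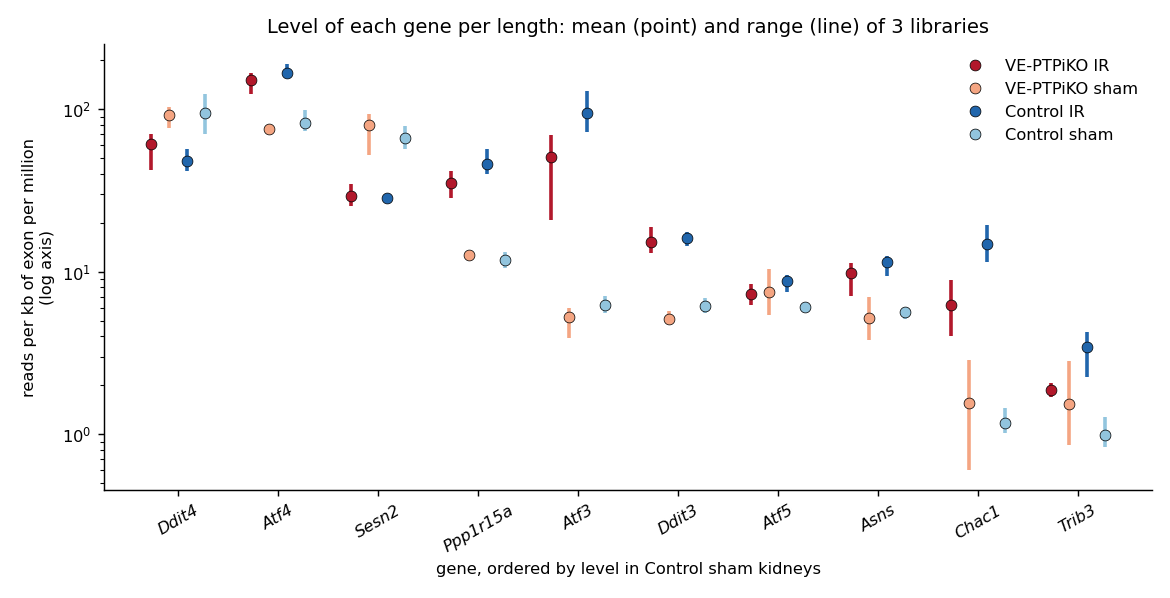
Levels of the 10 genes in RPKM on a log axis in the 4 groups, with points for group means and lines for the lowest and highest library. Atf4 is highest in both IR groups, and Trib3 has the lowest mean in all 4 groups and overlaps Chac1 in both sham groups.

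Within groups, single libraries stood apart in some of the genes. Deviations of each library from its group mean on the log2 scale were largest in VE-PTPiKO. In VE-PTPiKO IR replicate 3, Atf3 lay 1.15, Chac1 0.60 and Asns 0.49 below the group mean, while Sesn2 lay 0.20 above it. In VE-PTPiKO sham replicate 1, Chac1 lay 1.12, Trib3 1.07, Atf5 0.50 and Asns 0.44 above the group mean, and Sesn2 lay 0.58 below it. Malat1 took 1.96% of reads in the first of these libraries, the highest of all 12, and 0.334% in the other. The first also had the fewest reads in genes of the 12, 15427887, and the other the most, 21296392. Over the deviations of the 12 libraries, which share 4 group means, Pearson r with Malat1 was -0.77 for Asns, -0.76 for Atf3, -0.65 for Atf4 and -0.60 for Ppp1r15a, between -0.46 and -0.20 for Trib3, Ddit3, Chac1 and Atf5, and 0.27 for Ddit4 and 0.48 for Sesn2. With the log2 of reads in genes, the r of these deviations ran from -0.53 for Sesn2 to 0.52 for Chac1. The part of either library trait was not tested. Without the 3 libraries highest in Malat1 the VE-PTPiKO rise of Atf3 was 10.6-fold, and Asns was 2.11-fold higher and called (limma adjusted p = 0.0469). Ddit3 lay 0.14 below its group mean in VE-PTPiKO IR replicate 3 and 0.08 below in VE-PTPiKO sham replicate 1. In VE-PTPiKO IR replicate 1 it lay 0.33 above.

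**Figure D4:**
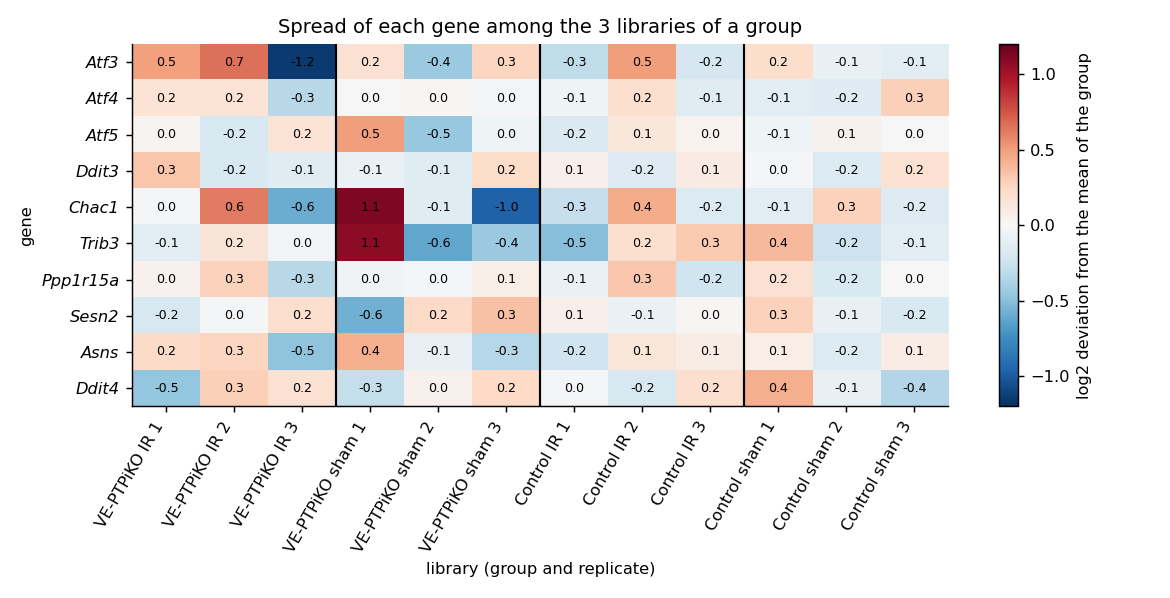
Grid of the log2 deviation of each library (columns) from the mean of its group for the 10 genes (rows), printed in the cells and coloured red above and blue below the mean, in VE-PTPiKO IR, VE-PTPiKO sham, Control IR and Control sham. The lowest value is Atf3 in VE-PTPiKO IR replicate 3, at -1.15, and the highest is Chac1 in VE-PTPiKO sham replicate 1, at 1.12.

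The genotype contrasts asked whether the level of these genes differed between VE-PTPiKO and Control kidneys with the same surgery. After IR, limma called none of the 10 and none of 16339 genes (0%). At an unadjusted p under 0.05 there were 709 of the 16339 genes, no more than this threshold alone would give without any difference. The counts given below for sham kidneys and for the interaction were lower still. DESeq2 called 1 gene, not among the 10, and edgeR 0. Among the 10, Chac1, Atf3, Ppp1r15a and Trib3 had an unadjusted p under 0.05, all with lower estimates in VE-PTPiKO. With all 12 libraries normalized together, Chac1 averaged 177 normalized counts in VE-PTPiKO IR and 427 in Control IR (log2 difference -1.31 ± 0.44, 95% interval -2.26 to -0.37, adjusted p = 0.99986). Atf3 averaged 1917 in VE-PTPiKO IR and 3607 in Control IR (log2 -1.06 ± 0.38, interval -1.89 to -0.23, adjusted p = 0.99986). Trib3 averaged 69.4 in VE-PTPiKO IR and 129 in Control IR (log2 -0.84 ± 0.39, adjusted p = 0.99986). For these 3 genes every VE-PTPiKO IR library lay below every Control IR library. Of all genes tested, 9.16% were separated in either direction, and the share separated in this direction alone was not counted. Without VE-PTPiKO IR replicate 3 the log2 differences were -1.02 for Chac1, -0.48 for Atf3 and -0.83 for Trib3. Over all omissions of 1 library, the estimates lay between 2.02-fold and 3.08-fold lower in VE-PTPiKO for Chac1, 1.40-fold and 2.62-fold lower for Atf3, and 1.61-fold and 2.14-fold lower for Trib3. Ddit3 had a log2 difference of -0.11 (interval -0.48 to 0.26) and Sesn2 of -0.0029 (interval -0.45 to 0.45), which leaves room for moderate differences in either direction.

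In sham kidneys limma called none of the 10 genes and none of all genes between VE-PTPiKO and Control (0%), with 267 genes at an unadjusted p under 0.05, none of them among the 10. DESeq2 called 1 gene, not among the 10, and edgeR 0. The groups overlapped for all 10, against 4.87% of all genes that did not overlap. The estimates ran from log2 -0.27 at Ddit3 (interval -0.63 to 0.10) to 0.40 at Trib3 (interval -0.44 to 1.23).

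The interaction asked whether the response to IR itself differed, as the VE-PTPiKO log2 fold change minus that in Control. Limma, DESeq2 and edgeR called no gene among the 10 or among all genes (0%), and 435 genes had an unadjusted p under 0.05 in limma. Chac1 (log2 -1.44 ± 0.62, 95% interval -2.78 to -0.10), Trib3 (log2 -1.24 ± 0.55) and Ppp1r15a (log2 -0.53 ± 0.24) were among them, each with an adjusted p of 0.9996. With 1 library left out, the Chac1 difference lay between -0.88 without VE-PTPiKO sham replicate 1 and -1.92 without VE-PTPiKO sham replicate 3. The Trib3 difference lay between -0.70 without VE-PTPiKO sham replicate 1 and -1.56 without VE-PTPiKO sham replicate 2. Atf4 (log2 -0.04, interval -0.52 to 0.45) and Ddit3 (log2 0.15, interval -0.37 to 0.68) had estimates close to 0. Calls of Chac1, Trib3, Asns and Ddit4 in Control and not in VE-PTPiKO are thus not shown to be a difference in response.

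The wider network was described through 8 lists of pathway genes, 103 genes in all when each is counted once. After IR, 9 of the 103 rose and 1 fell in VE-PTPiKO, and 34 rose and 1 fell in Control, with median log2 fold changes of 0.13 and 0.29. Over all genes tested, 1.92% were called higher and 0.793% lower in VE-PTPiKO, 7.48% higher and 4.02% lower in Control, and the median was -0.01 in both, and the counts of each list below stand beside these shares. None of the 103 was called in either genotype contrast or in the interaction.

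Upstream, the list of eIF2 kinases, eIF2 and eIF2B subunits, Ppp1r15b, Dnajc3 and Nck1 held 15 genes. None was called in VE-PTPiKO and 1 rose in Control, a share close to the 7.48% of all genes called higher there. That gene was Eif2ak3, encoding PERK, the kinase that senses ER stress, with 1883 ± 218 normalized counts in VE-PTPiKO IR against 1350 ± 134 in VE-PTPiKO sham and 2158 ± 224 in Control IR against 1307 ± 161 in Control sham (SD, n = 3 each). Its log2 fold change was 0.48 ± 0.14 in VE-PTPiKO (adjusted p = 0.141) and 0.73 ± 0.13 in Control (adjusted p = 0.00363). The other 3 kinases were not called, with log2 estimates of -0.09 and 0.06 for the heme-regulated Eif2ak1, -0.16 and -0.07 for the double-stranded RNA sensor Eif2ak2, and -0.10 and -0.28 for the amino acid sensor Eif2ak4, in VE-PTPiKO and in Control. Ppp1r15b, the constitutive partner of the eIF2 phosphatase, had -0.05 in VE-PTPiKO (adjusted p = 0.913) and 0.30 in Control (adjusted p = 0.0712).

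Of 14 leucine zipper partners and other factors, 3 rose in VE-PTPiKO and 5 in Control. Cebpd (log2 1.25 in VE-PTPiKO and 1.34 in Control), Xbp1, the factor of the IRE1 branch (1.15 and 1.23), and Cebpa (1.00 and 0.99) rose in both genotypes. Cebpb, a frequent partner of ATF4 and CHOP, had 0.21 in VE-PTPiKO (adjusted p = 0.722) and rose in Control (0.56, adjusted p = 0.0343). Atf6, the ER stress sensor, had 0.39 in VE-PTPiKO (adjusted p = 0.220) and rose in Control (0.47).

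Amino acid transporters are among the best-known targets of ATF4. Of 10 tested, none was called in VE-PTPiKO, while 5 rose and 1 fell in Control. In log2, the cystine importer Slc7a11 had 1.11 in VE-PTPiKO and rose by 2.06 in Control, and the cationic amino acid carrier Slc7a1 had 0.45 in VE-PTPiKO and rose by 1.30 in Control. The neutral carriers Slc1a4, Slc7a5 and Slc38a2 had 0.42, 0.18 and 0.45 in VE-PTPiKO and rose by 1.02, 0.89 and 0.76 in Control. The large neutral carrier Slc43a1 had -0.86 in VE-PTPiKO and fell by 1.31 in Control. Slc7a1 averaged 808 ± 96.5 normalized counts in VE-PTPiKO IR against 592 ± 95.4 in VE-PTPiKO sham, and 1203 ± 126 in Control IR against 488 ± 71.1 in Control sham. Its interaction was log2 -0.85 ± 0.21 (unadjusted p = 0.00157, adjusted p = 0.9996). Slc1a4 and Slc7a5 had interactions of -0.60 and -0.71, also unadjusted p under 0.05 only. The median interaction of the list was -0.40, against -0.02 for all genes.

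Of 14 amino acid synthesis and one-carbon genes, 1 fell in VE-PTPiKO, Psat1 of serine synthesis (log2 -0.84, adjusted p = 0.0378), and 2 rose in Control, the mitochondrial folate enzyme Mthfd2 (1.35, adjusted p = 0.000557) and the aminotransferase Gpt2 (0.41). The median of the list was -0.04 in VE-PTPiKO and -0.10 in Control, against -0.01 for all genes, and the single fall stands beside 0.793% and the 2 rises beside 7.48% of all genes. Mthfd2 had 0.78 in VE-PTPiKO (adjusted p = 0.260) and Psat1 had -0.59 in Control (adjusted p = 0.144). The 13 aminoacyl-tRNA synthetases, which charge tRNAs, gave no call in VE-PTPiKO and 5 rises in Control, with Cars (0.54), Yars (0.49) and Tars (0.49) the highest. These were small changes beside those of Mthfd2 or Slc7a1.

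Among 13 secreted and death-related targets, 2 rose in VE-PTPiKO and 5 in Control. Gdf15, a secreted stress hormone, averaged 1377 ± 70.5 normalized counts in VE-PTPiKO IR against 417 ± 142 in VE-PTPiKO sham, and 2225 ± 612 in Control IR against 394 ± 82.3 in Control sham. It rose by log2 1.78 in VE-PTPiKO (adjusted p = 0.00673) and 2.48 in Control (adjusted p = 5.34e-05). Pmaip1, encoding the death-promoting NOXA, rose by 1.34 and 1.63, and the translation inhibitor Eif4ebp1 had 0.98 in VE-PTPiKO (adjusted p = 0.102) and rose in Control (1.38). The hormone gene Fgf21 was near the detection limit, with 3.25 to 7.58 normalized counts in VE-PTPiKO IR, 0.825 to 5.15 in VE-PTPiKO sham, 5.39 to 12.6 in Control IR and 0 to 12.9 in Control sham, and was not called (adjusted p = 0.765 in VE-PTPiKO and 0.208 in Control).

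The ER chaperone list, which reports the ATF6 and XBP1 branches of the unfolded protein response, gave 3 rises of 18 in VE-PTPiKO and 10 of 18 in Control. The chaperone Hspa5 (BiP) rose by log2 1.39 in VE-PTPiKO (adjusted p = 0.0121) and 1.23 in Control (adjusted p = 0.000109), Creld2 by 1.17 and 0.83, and Sdf2l1 by 1.55 and 0.75. Manf, a secreted ER protein, had 1.41 in VE-PTPiKO (adjusted p = 0.0573) and rose in Control (1.01). Not every gene of the list went up, though none was called lower. Herpud1 averaged 18420 ± 2577 normalized counts in VE-PTPiKO IR against 23970 ± 1276 in VE-PTPiKO sham. In Control it averaged 17060 ± 2816 after IR against 23980 ± 2477 in sham. The median log2 fold change of the 18 was 0.54 in VE-PTPiKO and 0.37 in Control, and their median interaction was 0.14.

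**Figure D5:**
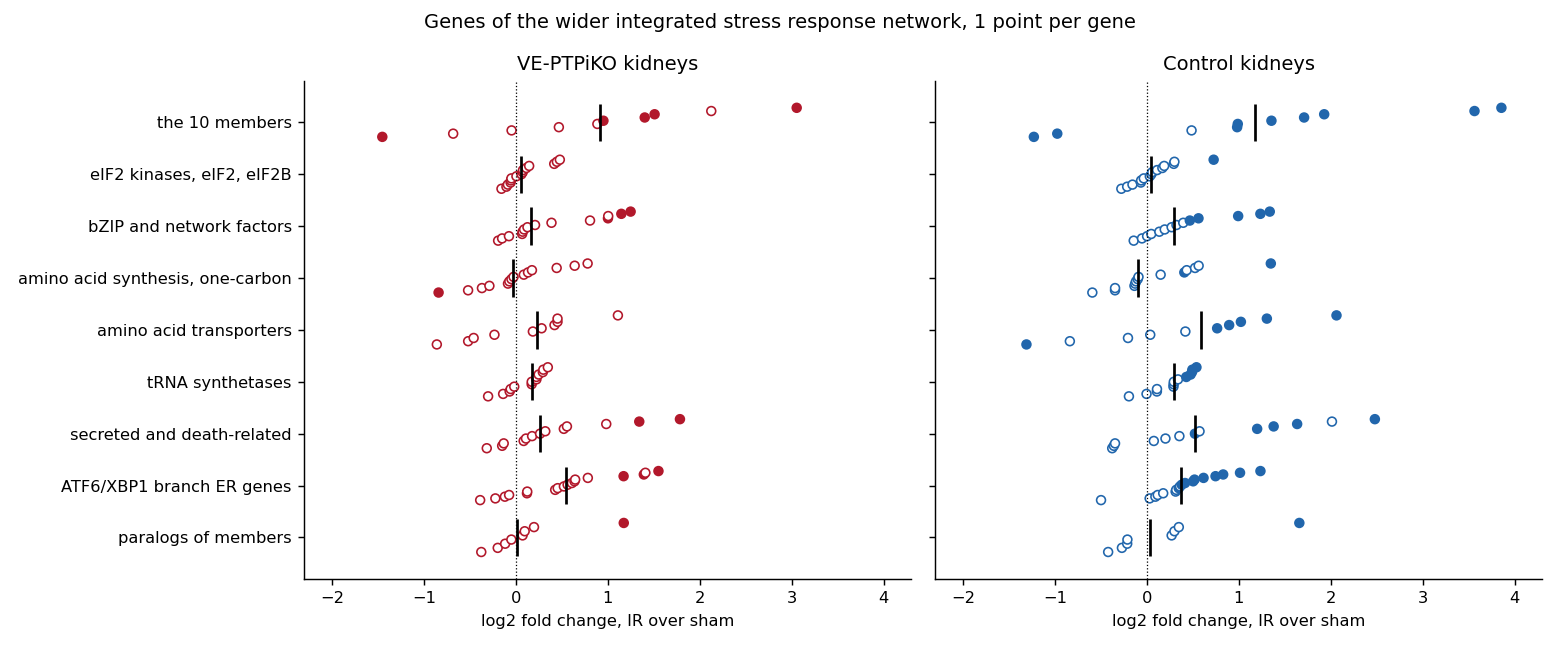
Log2 fold change of IR over sham for the genes of the 8 pathway lists, in VE-PTPiKO (left) and in Control (right), below the 10 genes themselves; points are genes, filled where called, and bars are list medians. The transporter median is 0.23 in VE-PTPiKO and 0.59 in Control, and the ER chaperone median is 0.54 in VE-PTPiKO and 0.37 in Control.

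Of 8 paralogs of the 10 genes, 1 was called, the pseudokinase gene Trib1, which rose in both genotypes, by log2 1.17 in VE-PTPiKO (adjusted p = 0.0109) and 1.66 in Control (adjusted p = 0.000127). Sesn1 and Sesn3, the other sestrin genes, had estimates of -0.38 and -0.20 in VE-PTPiKO and -0.27 and -0.21 in Control, and none was called. Trib2, Chac2, Ddit4l and Jdp2 were not called either, with estimates between -0.12 and 0.20 in VE-PTPiKO and between -0.42 and 0.35 in Control.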

How the data were processed

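Bulk RNA-seq of 12 whole-kidney libraries was used. Trizol RNA and a TruSeq RNA kit were used, per the labels' protocols. FastQC, STAR, HTSeq, DESeq2 and the mm10 build are named, without versions, in the submitters' processing notes. The authors deposited 1 table per genotype. The authors made the normalized signal in its library columns by scaling read counts per gene with a size factor set for each library within its table, as the deposited values show. The whole reads were recovered for 100.0% of values within a tolerance of 0.02 read. The deposited log2 fold changes, p-values and adjusted p-values are the authors' own, per the file headers, and the deposited Wald score was not used. Of 23493 lines per table, 182 gene identifiers were listed more than once and 23286 genes were kept. Gene starts were counted from 0 in the deposited tables and are given here from 1.

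IR was compared with sham within each table by limma 3.58.1 (R 4.3.3) on log2(value + 1) with trended variance, keeping genes whose mean was at least 1. A fold change on this scale understates changes of low genes. For the genotype contrasts, recovered reads from the 12 libraries were scaled jointly, by median ratios across 14828 genes. The interaction used the deposited values of both tables, where a factor shared by a table cancels. The deposited values are normalized, so limma was the main test and count tests (DESeq2 1.42.0, edgeR 4.0.16) were alternatives on the recovered reads. Tested on simulated counts for Control IR versus sham, the limma step recovered 58% of genes changed 2-fold and 95% of those changed 4-fold. The shares were 57% and 96% for VE-PTPiKO IR versus sham, 65% and 98% for the genotype contrast after IR, 68% and 95% for that in sham, and 29% and 82% for the interaction. The 200 changed genes of each comparison were drawn from genes with higher means than the low-value filter requires, so recovery of lower genes was not tested. False calls were 9 of 162 for Control IR versus sham and 8 of 161 for VE-PTPiKO IR versus sham. They were 9 of 172 for the genotype contrast after IR, 14 of 177 for that in sham and 7 of 118 for the interaction. The simulated counts used 1 spread per gene, estimated over all 12 libraries, so they cannot show whether recovery differed between the genotypes. In the fits to the data, the SE at Atf3 was 0.43 in VE-PTPiKO and 0.19 in Control.

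The 10 genes, the pathway lists and the markers were chosen with earlier results of these data known. Besides the 10 genes, named genes were up to 3 called genes of highest and 3 of lowest fold change per list, the eIF2 kinases, Ppp1r15b, Cebpb, Hspa5, Gdf15, Fgf21, the paralogs, Ptprb and Malat1. Replicate numbers were not used as pairs in the main fits. Same-numbered sham libraries of both genotypes deviated together (r = 0.318, 0.37 and 0.144), and the pairing comes from that correlation alone; in the other comparisons at least 1 pair had r under 0.1. Alternatives were other pseudocounts, filters, TMM, the count tests, a replicate block, 1 model of all libraries, joint normalization and leaving out each library. Library weights and omission of the 3 libraries highest in Malat1 were added after seeing the data. The 2 single-cell samples of the series were not analysed here.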

Additional observations from a re-analysis of the deposited data

How the results depend on the processing

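Among the 10 genes, no estimate that was called changed sign under the alternatives run. In VE-PTPiKO kidneys the number called among the 10 was 5 with all libraries, 8 with the replicate block, 8 with library weights, 7 with DESeq2, 7 with 1 model of all 12 libraries, 6 without the libraries highest in Malat1, and 3 to 7 when a library was left out. It was 3 without IR replicate 1, IR replicate 2, sham replicate 2 or sham replicate 3. Over all genes the VE-PTPiKO count was 445, against 1008 with DESeq2, 1019 with 1 model of all 12 libraries, 3879 with library weights, 853 without the libraries highest in Malat1, 604 with the replicate block, and 126 to 1925 when a library was left out (1925 without IR replicate 3, 126 without sham replicate 3). In Control kidneys 9 or 10 of the 10 genes were called under each alternative, and 862 to 2010 genes in all when a library was left out (862 without Control IR replicate 2), against 1870 with all 6 libraries. The Control count over all genes was 2218 with DESeq2, 2651 with library weights and 1561 with 1 model of all 12 libraries. It was 2010 without the libraries highest in Malat1. In the genotype contrasts and the interaction none of the 10 genes was called under any alternative. Over all genes, DESeq2 called 1 after IR and 1 in sham, the sham contrast without the libraries highest in Malat1 called 1, and leaving out a library gave 0 after IR, 0 to 1 in sham and 0 to 1 for the interaction. With the replicate block the Control count was 1805, and the genotype contrasts and interaction stayed at 0. The cause of these shifts was not tested. With 3 libraries per group, the 95% interval of the interaction was -0.52 to 0.45 at Atf4 and, the widest of the 10 genes, -2.78 to -0.10 at Chac1.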

Other observations

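Over the 12 jointly normalized libraries, the genes whose profile was most like that of Ddit3, among 11234 ranked, were Spint1 (Pearson r = 0.977), Ptp4a1 (0.975), Zfand2a (0.973), Wwtr1 (0.972) and Pvr (0.971). For Chac1 they were Icam1 (0.970), Bcar1 (0.969), Ckap4 (0.969), Tbxas1 (0.966) and Hspb1 (0.965). These values describe libraries that share 4 group means and carry no test. For the deviations from group means alone, r with Ddit3 lay between 0.459 for Zfand2a and 0.805 for Ptp4a1. With Chac1 it lay between 0.714 for Hspb1 and 0.969 for Icam1.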
